A study of Homo sapiens with 3 samples.

Results

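De novo nucleotide synthesis was described here through 10 enzyme genes, 4 of the pyrimidine pathway (CAD, DHODH, UMPS and CTPS1) and 6 of the purine pathway (PPAT, GART, PAICS, ADSL, ATIC and IMPDH2). They were listed by symbol as enzymes of these pathways, and no measured value enters the rule, although earlier results of these data were known when they were chosen. Each symbol was found once among the 59719 gene names of the deposited expression table, and all 10 were among the 13637 genes tested, those whose TPM averaged 1 or more across libraries. TPM, a length-scaled measure of transcript abundance, divides reads by transcript length and scales every library to the same sum, so levels can be compared between genes within a library, and differences between libraries are relative to the rest of the RNA.

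Total RNA was sequenced from PC3 cells, an androgen-independent human prostate cancer line of epithelial origin, in 3 libraries. The shCON library came from cells labelled control, and the shUSP16#1 and shUSP16#2 libraries from cells with 1 of 2 hairpins against USP16, a deubiquitinase that the study links to the stability of the c-Myc protein. Hairpins were expressed from the pLKO.1 vector and stable cells were selected with puromycin, and whether a line is a pool or 1 clone is not given in the sources used here. Each condition had 1 library, so no difference below has a replicate check, no p-value is given, and differences are described by their size against all genes tested. The hairpins are shown because they are what distinguishes the libraries. Their sense strands, from the study's list of reagents, were

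shUSP16#1: gccagaagaaatcatgtttat
shUSP16#2: cggtgatattccacaagattt

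Cells build purines stepwise on phosphoribosyl pyrophosphate (PRPP) until inosine monophosphate (IMP) is formed, which then branches to adenine and guanine nucleotides. Pyrimidines are built as a free ring that is joined to PRPP to give uridine monophosphate (UMP), the precursor of CTP and thymidylate. Dividing cells rely on both routes for RNA and DNA, and c-Myc is known to bind and activate many of the genes involved.

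Values in 3 libraries are given in the order shCON, shUSP16#1, shUSP16#2, and pairs of changes in the order shUSP16#1, shUSP16#2, each against shCON. USP16 was measured at 19.9, 3.5 and 1.08 TPM. The epithelial genes EPCAM, CDH1, KRT8, KRT18 and KRT19 were all above 1 TPM in a library, with sums between 2454 and 2676 TPM, whereas KLK3 and KLK2 were listed at 0. Within that sum EPCAM was lower in the hairpin libraries, at 273.5, 165.6 and 135.9 TPM, and KRT19 higher, at 507.1, 837.5 and 958 TPM. Of 6 immune, stromal and endothelial markers, 2 reached 1 TPM in a library, and the sum of the 6 was 4.56, 11.5 and 6.4 TPM. DCN was at 0 throughout. The part of these markers in the differences below was not tested. Changes are differences in log2(TPM + 1), which compresses those of weakly expressed genes. The median of all tested genes was itself below 0, at -0.17 under shUSP16#1 and -0.37 under shUSP16#2. Both comparisons share the shCON library.

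Among the pyrimidine enzymes UMPS was lower in the hairpin libraries, CTPS1 less so, and CAD lay near its control level. In RNA from whole cultures, fewer cells of a kind and less RNA per cell cannot be told apart. CAD, a large protein that carries the opening steps of the pathway from carbamoyl phosphate to dihydroorotate, measured 34.3, 32.5 and 35.5 TPM (ENSG00000084774, chromosome 2, 27217390 to 27243943). The shCON value thus lay between the hairpin values, and the changes were -0.08 and 0.05, or 0.10 and 0.42 with the all-gene median subtracted. DHODH, the mitochondrial enzyme that oxidises dihydroorotate, was the least abundant of the 10 in every library, at 5.35, 4.34 and 5.34 TPM (ENSG00000102967, chromosome 16, 72008588 to 72027664). Its level under shUSP16#2 was 99.8% of that in shCON, against 81.1% under shUSP16#1, and with the all-gene median subtracted its changes were -0.08 and 0.37.

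UMPS, which joins orotate to PRPP and decarboxylates the product to UMP, measured 29.02, 18.9 and 17.8 TPM (ENSG00000114491, chromosome 3, 124730366 to 124749273). The hairpin values were 65.2% and 61.4% of the control, changes of -0.59 and -0.67, the first only just past the 1.5-fold threshold of 0.585. With the median over tested genes subtracted the changes were -0.42 and -0.31, short of that threshold. CTPS1, which aminates UTP to CTP, measured 58.7, 43.8 and 44.1 TPM (ENSG00000171793, chromosome 1, 40979335 to 41012565). Its hairpin values were nearly equal, at 74.6% and 75.1% of shCON, and with the all-gene median subtracted its changes were -0.24 and -0.04. Summed over the 4 genes, pyrimidine enzyme TPM came to 127, 99.6 and 103.

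**Figure D1:**
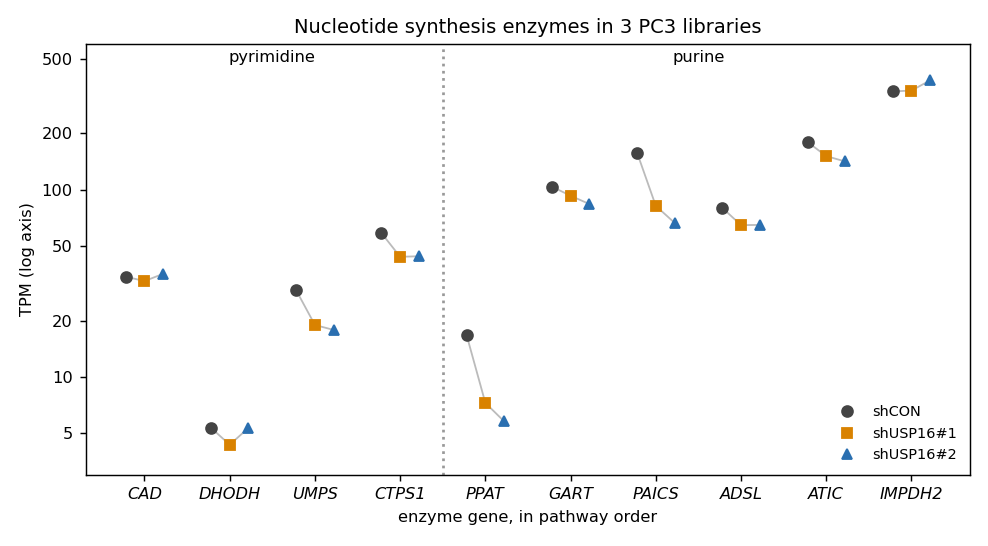
TPM (log axis) of the 10 enzyme genes in pathway order, 1 point for each library (circle shCON, square shUSP16#1, triangle shUSP16#2), with no error bars because each condition had 1 library. PPAT and PAICS show the widest gaps, from 16.7 to 5.79 TPM and from 157.7 to 66.5 TPM, while IMPDH2 stays between 335 and 384 TPM.

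Among the purine enzymes the lowest values relative to the control were those of PPAT and PAICS. PPAT, amidophosphoribosyltransferase, catalyses the committed step of the pathway. It measured 16.7, 7.26 and 5.79 TPM, or 43.4% and 34.6% of the control. Its changes were -1.10 and -1.38, at percentiles 4.02 and 7.45 of all tested genes. PAICS, a fusion of the carboxylase and the succinocarboxamide synthetase that act midway along the pathway, was at 157.7, 81.9 and 66.5 TPM, or 52.0% and 42.2% of the control. The changes of PAICS were -0.94 and -1.23, at percentiles 7.71 and 11.3. For both genes the control was highest and shUSP16#2 lowest, and both passed the 1.5-fold threshold under each hairpin also after the median over tested genes was subtracted (PPAT -0.93 and -1.02, PAICS -0.76 and -0.86).

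PPAT and PAICS lie head to head on chromosome 4. In GENCODE release 29 (GRCh38), PPAT (ENSG00000128059) runs on the reverse strand from 56393362 to 56435615, and PAICS (ENSG00000128050) on the forward strand from 56435741 to 56464579, so their starts are 126 bases apart. The RefSeq starts (GRCh38.p14) are 137 bases apart, with the following 136 bases between them at chr4:56435616-56435751, given on the forward strand. It is shown because it is the only stretch that lies upstream of both genes, and its GC content is 75%.

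PPAT and PAICS, between the starts: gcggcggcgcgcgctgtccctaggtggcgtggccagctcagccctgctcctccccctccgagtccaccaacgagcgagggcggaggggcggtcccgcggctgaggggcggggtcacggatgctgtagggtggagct

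PAICS TPM was 9.43, 11.3 and 11.5 times PPAT TPM in the 3 libraries, so PPAT was the lower of the pair relative to its control level. Pseudogenes named after them held little signal, with at most 0.21 TPM for any of 7 PAICS pseudogenes and 0 for both PPAT pseudogenes.

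The remaining purine enzymes lay closer to the control. GART, which carries a synthetase, a transformylase and a further synthetase activity in 1 protein, measured 103.8, 92.8 and 83.8 TPM. ADSL, adenylosuccinate lyase, acts both before IMP and on the way to AMP. It measured 79.97, 64.7 and 64.8 TPM (ENSG00000239900, chromosome 22, 40346500 to 40390463), or 80.9% and 81.1% of shCON, with nearly equal values under the hairpins. ATIC, which closes the purine ring to IMP, measured 179.8, 151.1 and 141.5 TPM (ENSG00000138363, chromosome 2, 215311817 to 215349773). The hairpin values of GART, ADSL and ATIC were all below their control, with changes from -0.16 (GART, shUSP16#1) to -0.34 (ATIC, shUSP16#2), none of them past the threshold. With the median over tested genes subtracted, GART changed by 0.01 and 0.06, ADSL by -0.13 and 0.07, and ATIC by -0.08 and 0.02.

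IMPDH2, which commits IMP to guanine nucleotides, was the most abundant enzyme of the 10 in every library. It measured 334.9, 338 and 384 TPM (ENSG00000178035, chromosome 3, 49024325 to 49029408), higher in both hairpin libraries than in the control. Its changes were 0.01 and 0.20, or 0.19 and 0.56 with the all-gene median subtracted, at percentiles 63.2 and 80.4 of all tested genes. Summed over the 6 genes, purine enzyme TPM came to 873, 736 and 746. IMPDH2 offset part of the lower PAICS level in this sum under shUSP16#2.

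The order of the enzymes by TPM was nearly the same in all libraries, from IMPDH2 and ATIC at the top to CAD, UMPS, PPAT and DHODH at the bottom. In shCON the order in between was PAICS, GART, ADSL and CTPS1. PAICS stood above GART in shCON only, at 157.7 against 103.8 TPM, and below it under shUSP16#1, at 81.9 against 92.8 TPM. Without replicates it cannot be said whether such neighbours differ beyond library error. The ratio of ATIC, the last enzyme before IMP, to PAICS was 1.14, 1.84 and 2.13. The ratio of GART to PPAT, which act early in the pathway, was 6.21, 12.8 and 14.5.

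As a list, the 10 enzymes lay near the other genes tested. Under shUSP16#1, 3 of 10 (PPAT, PAICS and UMPS) were at least 1.5-fold lower than in shCON, against 23.2% of all tested genes. Under shUSP16#2 it was the same 3 of 10, against 38.5% of all tested genes. No enzyme was at least 1.5-fold higher, a change found for 8.73% of tested genes under shUSP16#1 and 7.33% under shUSP16#2. The median change of the list was -0.28 and -0.32, against -0.17 and -0.37 for all tested genes, or -0.105 and 0.04 once that shift was subtracted. With every change taken relative to the median of all genes, 2 of 10 enzymes (PPAT and PAICS) were at least 1.5-fold lower under each hairpin, against 14.3% and 21.4% of tested genes. The same centring moved the lower share of all calls from 72.7% to 49.9% under shUSP16#1 and from 84.0% to 53.5% under shUSP16#2. At a 2-fold threshold 1 enzyme (PPAT) was lower under shUSP16#1, against 5.79% of tested genes, and 2 (PPAT and PAICS) under shUSP16#2, against 19.5%.

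**Figure D2:**
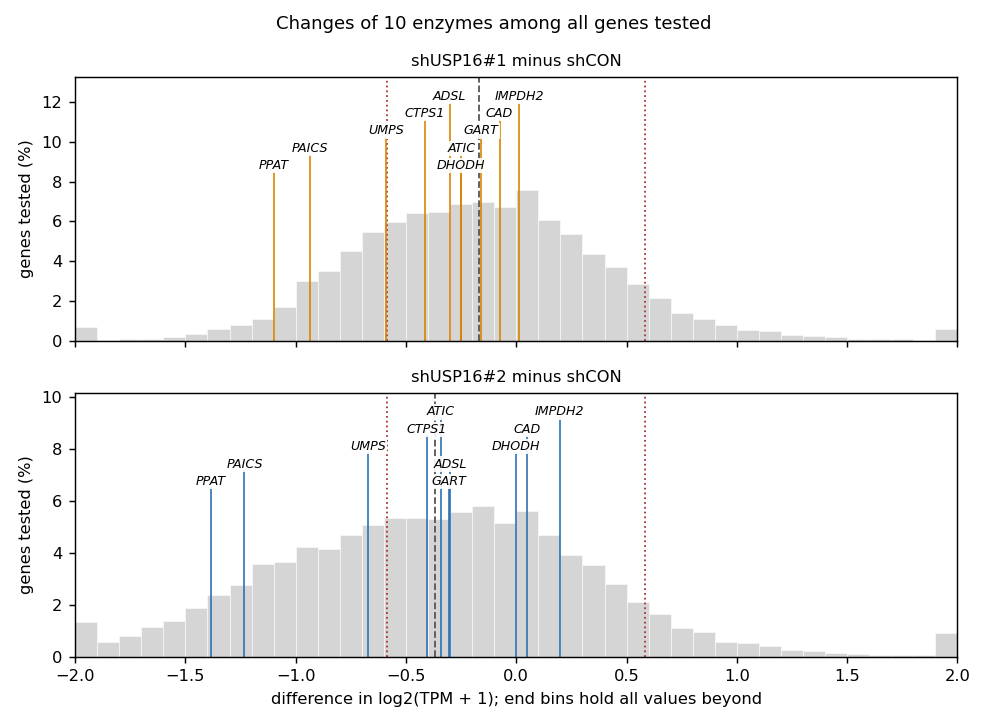
Difference in log2(TPM + 1) of each enzyme (coloured lines) against the distribution of all 13637 tested genes (grey bars, percent of genes in bins 0.1 wide), for each hairpin against shCON. Dashed lines mark the median over tested genes, dotted lines a 1.5-fold change. PPAT and PAICS lie in the lower tail, at -1.10 and -0.94 and at -1.38 and -1.23, and the other enzymes lie between -0.67 and 0.20.

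The changes of the enzymes ran with the GC content of their transcripts, as those of all tested genes did. PPAT had the lowest GC content of the 10 at 37.9%, followed by PAICS at 43.0%, and CAD the highest at 57.7%. Over the 10 enzymes the rank correlation of the change with GC content was 0.73 under shUSP16#1 and 0.85 under shUSP16#2 (Pearson r 0.86 and 0.90). Over the 13296 tested genes with a GC value the rank correlation was 0.54 and 0.63. All these points come from the same 3 libraries and genes are not replicates, so they are given as a description. Genes in the same bin of GC content as PPAT, of 50 bins with equal numbers of genes, had median changes of -0.61 and -1.04, and PPAT differed from them by -0.49 and -0.34. PAICS differed by -0.53 and -0.51 from the medians of its bin, -0.40 and -0.73. With the GC trend removed from all genes and the all-gene median put back, PPAT changed by -0.67 and -0.72 and PAICS by -0.71 and -0.88. UMPS, at -0.50 and -0.53, no longer passed the threshold. In that setting 15.4% and 32.1% of genes were at least 1.5-fold lower. Against the medians of their own bins, which leaves that shift out, neither PPAT nor PAICS was 1.5-fold lower. IMPDH2, with 52.3% GC, lay 0.05 and 0.45 above the medians of its bin. The part of GC content in these differences was not tested.

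**Figure D3:**
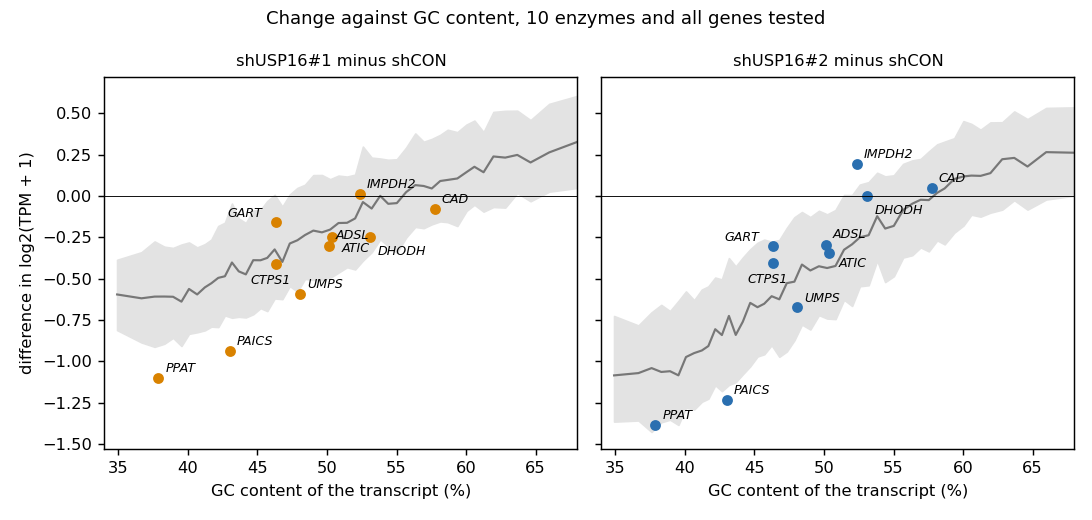
Difference in log2(TPM + 1) of the 10 enzymes (points) against the GC content of their transcripts in percent, for each hairpin against shCON. The grey line and band show the median and the quartiles of all tested genes in 50 bins of GC content. PPAT (37.9% GC) and PAICS (43.0% GC) lie at the lower left in both panels, below the grey line, and IMPDH2 lies above it.

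The hairpin libraries were also compared with each other, which does not involve shCON. No enzyme differed by 1.5-fold between shUSP16#2 and shUSP16#1, where 16.6% of tested genes were lower and 3.39% higher by that much. The median difference of the 10 enzymes was -0.04, against -0.21 for all tested genes. DHODH had the highest difference, 0.25 (123% of its shUSP16#1 level, at a level of about 5 TPM), followed by IMPDH2 at 0.18 and CAD at 0.13. PAICS and PPAT had the lowest, at -0.30 and -0.28. Only these 2 lay below the median of all tested genes. The rank correlation of this difference with GC content was 0.84 over the 10 enzymes and 0.38 over all tested genes with a GC value. Relative to the medians of their GC bins, PPAT lay 0.20 and PAICS 0.03 higher, and the other enzymes were also above theirs. The part of GC content in this difference was not tested.

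CTPS1 and IMPDH2 each have a paralog with the same activity. CTPS2 measured 6.23, 4.79 and 4.29 TPM, and CTPS1 made up 90.4%, 90.1% and 91.1% of the pair. IMPDH1 was at 138, 131 and 152 TPM, and IMPDH2 made up 70.8%, 72.0% and 71.6% of the pair. The composition of both pairs therefore differed little between libraries. How reads shared by near-identical copies were counted is not given in the sources used here. The 7 pseudogenes named after IMPDH1 summed to at most 1.86 TPM.

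Some neighbours overlap the enzyme genes, and the sources do not say whether strand was used in counting, so reads from overlapping stretches cannot be told apart. GART (chromosome 21, from 33503931 to 33543491, reverse strand) overlaps SON, a splicing factor gene on the opposite strand, whose start lies 873 bases from that of GART. SON measured 127.8, 50.4 and 41.8 TPM, changes of -1.32 and -1.59. GART, with 89.4% and 80.7% of its control level (ENSG00000159131), was nearer its control than this neighbour. IMPDH2 overlaps the antisense gene AC137630.3, with starts 92 bases apart. That gene was at 3.19, 0.73 and 0.96 TPM. ADSL overlaps SGSM3, which was at 12.5, 16.6 and 19.6 TPM.

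The study lists a c-Myc gene signature, taken from another dataset of prostate cancer cells overexpressing c-Myc, and 5 of the 10 enzymes are in it (CAD, DHODH, PPAT, GART and ADSL). Their median change was -0.25 under shUSP16#1 and -0.30 under shUSP16#2, and that of the 5 enzymes outside it was -0.41 and -0.40. With the all-gene median subtracted these were -0.08 and 0.07 in the signature and -0.24 and -0.04 outside it, so the sign in the signature differs under shUSP16#2. At least a 1.5-fold lower level was found for 1 of the 5 in the signature (PPAT) and for 2 of the 5 outside it (UMPS and PAICS) under each hairpin, against 23.2% and 38.5% of all tested genes, and UMPS did not reach that level with the all-gene median subtracted. MYC itself measured 238, 209 and 173 TPM, changes of -0.19 and -0.46, or -0.02 and -0.09 with the all-gene median subtracted. The study reported less c-Myc protein after USP16 knockdown, with no effect on the mRNA. From RNA-seq of PC3 cells it also reported Myc target and signature gene sets as enriched in the control. Those results concern the protein and whole gene sets, which the 5 enzymes here do not test.

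c-Myc binds the E-box CACGTG, which reads the same on both strands. RefSeq promoter windows, 250 bases before to 50 after the start on GRCh38.p14, were found for 8 of the enzymes, taking the window nearest the GENCODE start. The E-box was present in 4 of these 8 (DHODH, PPAT, PAICS and ATIC) and in 7.26% of 35116 windows in the whole table. The 8 windows had a GC content of 60.3% to 71.7%. The share over the whole table was not matched to them for GC content or expression, so the shares are not like for like. The windows of PPAT and PAICS have 236 bases in common. PPAT and PAICS share 1 and the same E-box, at positions 56435792 to 56435797 of chromosome 4, which starts 182 bases upstream of the PPAT start and 40 bases downstream of the PAICS start. The variants CATGTG or CACATG, present in 11.1% of all windows, and CACGCG or CGCGTG, present in 11.4%, were in none of the 8 windows. The E-boxes are shown with their flanks, 30 bases each on the strand of the gene, with the motif in capitals, for chr16:72008573-72008602, chr4:56435780-56435809, chr2:215312001-215312030 and chr2:215312076-215312105.

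DHODH, 159 bases upstream: gccgctactgcgCACGTGcacccaaccaga
PPAT, 182 bases upstream: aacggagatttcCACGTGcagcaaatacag
ATIC, 46 bases upstream: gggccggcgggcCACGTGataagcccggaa
ATIC, 29 bases downstream: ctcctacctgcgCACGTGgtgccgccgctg

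The enzymes with this motif included the 2 with the lowest values relative to control (PPAT and PAICS), ATIC with 84.0% and 78.7% of its control level, and DHODH with 81.1% and 99.8%. Of the 4 without it in the window used (CAD, UMPS, CTPS1 and GART), UMPS was past the threshold. Bases outside the windows were not searched, so these genes may hold the motif elsewhere. The windows used for GART and CTPS1 rest on RefSeq starts 599 and 361 bases from the GENCODE start. Those for ATIC and DHODH rest on RefSeq starts 242 and 156 bases from it, and the distances printed with the E-boxes are from RefSeq starts. Both ATIC E-boxes lie downstream of the GENCODE start at 215311817. The DHODH E-box, from 72008585 to 72008590, spans the GENCODE start at 72008588. A motif match is a description of the sequence and does not show binding in these cells.

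The other genes of nucleotide metabolism were described from fixed lists. Among 9 further genes of purine synthesis and PRPP supply, 4 were at least 1.5-fold lower under shUSP16#1 and 5 under shUSP16#2. The lower shares of all tested genes were 23.2% and 38.5%. Of the 9, 0 were higher, against 8.73% and 7.33% of all tested genes. The list medians were -0.47 and -0.69, or -0.30 and -0.32 after the all-gene median was subtracted. With the GC trend removed and the all-gene median put back they were -0.255 and -0.44, close to the -0.18 and -0.37 of all genes with a GC value. PRPS2, a PRPP synthetase, was at 37.1, 20.6 and 17.0 TPM, and its paralog PRPS1 at 99.8, 62.6 and 61.4 TPM. PRPS1 made up 72.9%, 75.3% and 78.3% of that pair. ADSS, which acts before ADSL on the way to AMP, was at 47.4, 27.7 and 22.2 TPM. GMPS, which follows IMPDH2 on the way to GMP, was at 50.6, 31.8 and 25.3 TPM. PRPSAP2, a regulatory partner of the PRPP synthetases, was at 24.98, 17.8 and 13.1 TPM, and past the threshold under shUSP16#2. PFAS, which acts in the early part of the pathway alongside GART, was at 15.3, 16.8 and 10.8 TPM.

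Of 8 genes for deoxynucleotide and thymidylate synthesis, 6 were at least 1.5-fold lower under shUSP16#1 and 7 under shUSP16#2, against 23.2% and 38.5% of all tested genes. The list medians were -0.81 and -0.96, or -0.64 and -0.59 after the all-gene median was subtracted. With the GC trend removed and the all-gene median put back they were -0.56 and -0.72, against -0.18 and -0.37 for all genes with a GC value. RRM2, the small subunit of ribonucleotide reductase, was at 162.7, 63.8 and 65.6 TPM, and RRM1, the large subunit, at 61.1, 32.3 and 29.1 TPM. TYMS, thymidylate synthase, was at 243.4, 81.0 and 133.1 TPM, lowest under shUSP16#1. RRM2B, an alternative small subunit of the reductase, was at 7.56, 4.21 and 1.57 TPM. DTYMK was the exception under both hairpins, at 248.7, 225 and 236.9 TPM.

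Salvage, which recovers bases and nucleosides, had median changes nearer to 0, at -0.19 and -0.16 over 14 genes, or -0.02 and 0.20 after the all-gene median was subtracted. There 3 genes were at least 1.5-fold lower under shUSP16#1 and 4 under shUSP16#2 (21.4% and 28.6%, against 23.2% and 38.5% of all tested genes), and 0 were higher. HPRT1, which recovers hypoxanthine and guanine, was at 105.5, 69.2 and 61.0 TPM. DCK, deoxycytidine kinase, was at 23.4, 13.3 and 15.2 TPM, PNP at 128.2, 79.8 and 92.7 TPM, and ADK at 159.2, 116.8 and 103.4 TPM. MTAP was at 12.7, 9.43 and 7.62 TPM.

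**Figure D4:**
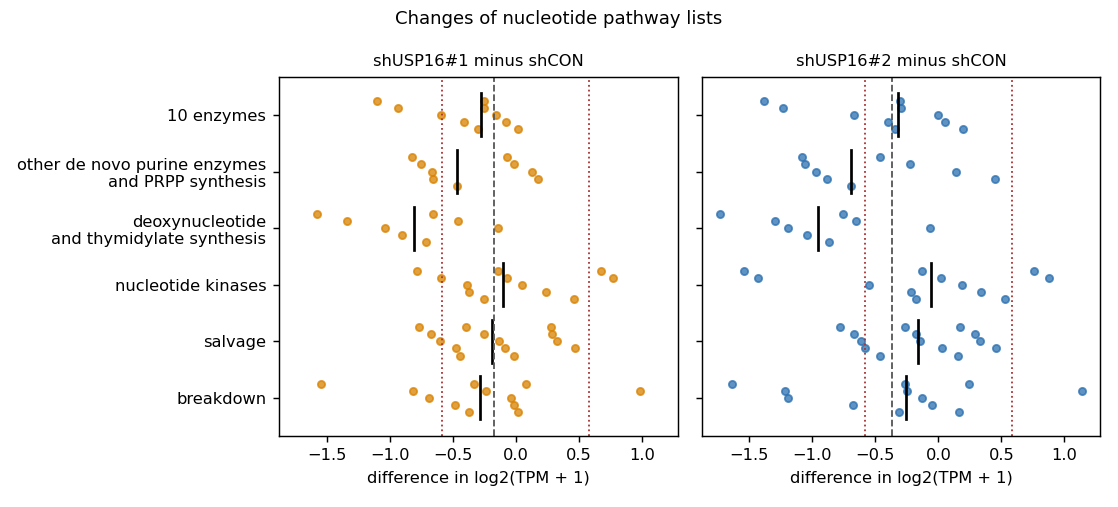
Difference in log2(TPM + 1) of the genes of each list (points, tested genes only, with small vertical offsets for legibility) for each hairpin against shCON, with the list median as a black bar. Dashed lines mark the median over tested genes, dotted lines a 1.5-fold change. The list of deoxynucleotide and thymidylate synthesis lies furthest left, with medians of -0.81 and -0.96, against -0.28 and -0.32 for the 10 enzymes.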

How the data were processed

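RNA-seq was performed on 3 libraries, 1 per condition. The authors deposited gene expression as TPM values with 2 decimals, made on the Majorbio Cloud Platform. The submitters' processing notes name CASAVA, HISAT2 and the build hg19, while the quantification tool is not given in the sources used here. A further 3 columns duplicate the TPM columns with identical values and were ignored. TPM keeps no record of depth, so no counting interval was given.

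Of 60930 entries, 1211 with a repeated name were left out, keeping the highest, and genes averaging 1 TPM or more were tested. Changes were differences in log2(TPM + 1). No test was run, and changes of at least 1.5-fold were counted. Gene positions came from GENCODE release 29 (GRCh38) by gene ID, which matched all 10 enzymes, and the files hold no coordinates. GC content was that of the GENCODE transcript nearest the deposited gene length, available for 97.5% of tested genes. For GC removal, each of 50 GC bins had its own median change taken off and that of all genes put back. Promoters came from RefSeq.

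The members and lists were chosen with earlier results of these data known. The text names the 10 enzymes, USP16, MYC, paralogs, neighbours whose start lies within 1000 bases, and of each list the genes past 1.5-fold under either hairpin, up to the 5 with the largest mean change. SGSM3, PFAS and DTYMK were named outside it, with their values already known. Some genes within the rule are not reported here. Alternatives were a pseudocount of 0.1, centring, GC removal, protein-coding genes only with centring, no minimum, a minimum of 5 TPM and a 2-fold threshold. The procedures were tested on simulated data. Scripts ran in Python 3.11.15 with pandas 2.3.3, numpy 2.4.6, matplotlib 3.10.9 and scipy 1.17.1.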

Additional observations from a re-analysis of the deposited data

How the results depend on the processing

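No paired analysis was possible because a single library stood for each condition, so none could be left out either. The median change of the 10 enzymes under shUSP16#1 was -0.28, and became -0.30 with a pseudocount of 0.1, -0.105 when centred on tested genes, -0.29 after GC removal and -0.072 with protein-coding genes only and centring. Under shUSP16#2 it was -0.32, and became -0.33, 0.044, -0.26 and 0.076 under the same alternatives, so its sign depends on centring. The median difference of shUSP16#2 from shUSP16#1, for which, as for the pathway lists, the alternatives were chosen after seeing the data, moved from -0.04 to 0.17 when centred, -0.0081 after GC removal and 0.16 with protein-coding genes only and centring. The 3 enzymes at least 1.5-fold lower under shUSP16#1 became 1 at a 2-fold threshold, and the count under each hairpin was 2 or 3 under every other alternative. GC removal left the all-gene median in the changes, and 15.4% and 32.1% of all genes were then lower under shUSP16#1 and shUSP16#2. Centring changed the sign of 2 enzymes under shUSP16#1 (CAD and GART) and of 4 under shUSP16#2 (DHODH, GART, ADSL and ATIC). GC removal changed that of 1 enzyme under each, IMPDH2 under shUSP16#1 and CAD under shUSP16#2. PPAT, PAICS, UMPS and CTPS1 kept their sign under each alternative. For CTPS1 the change came as near to no change as -0.0039, under shUSP16#2 with protein-coding genes only and centring. Depth is unknown, which limits DHODH and PPAT most among the 10, since they have the lowest TPM.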

Other observations

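Nucleotide kinases, which phosphorylate monophosphates and diphosphates, moved in both directions. Of 12 tested genes, 2 were at least 1.5-fold lower and 2 were higher under each hairpin, 16.7% each way, and the list medians were -0.10 and -0.06, or 0.07 and 0.31 after the all-gene median was subtracted. Of all tested genes, 23.2% and 38.5% were lower and 8.73% and 7.33% higher under shUSP16#1 and shUSP16#2. CMPK1, the UMP and CMP kinase, measured 39.6, 22.5 and 14.1 TPM in the order shCON, shUSP16#1, shUSP16#2, and AK6 was at 19.4, 14.5 and 5.99 TPM. AK1, an adenylate kinase, was at 44.3, 71.4 and 82.3 TPM, and NME3, a nucleoside diphosphate kinase, at 23.0, 40.2 and 39.7 TPM, both highest in hairpin libraries. AK4 was lower under shUSP16#1, at 15.4 TPM against 23.7 TPM in shCON and 21.6 TPM under shUSP16#2.

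Of 17 genes of nucleotide breakdown, 12 were tested, of which 3 were at least 1.5-fold lower under shUSP16#1 and 4 under shUSP16#2, with 1 higher under each. The lower shares, 25% and 33.3%, stand beside the 23.2% and 38.5% of all tested genes. The higher share, 8.33% under each hairpin, stands beside 8.73% and 7.33%. The median changes were -0.29 and -0.25, or -0.11 and 0.11 after the same subtraction. The higher gene was ADA, adenosine deaminase, at 12.4, 25.5 and 28.5 TPM. NT5E, the ecto-enzyme that releases adenosine from AMP, was at 24.1, 7.63 and 7.07 TPM. SAMHD1, a dNTP hydrolase, was at 14.8, 11.3 and 5.81 TPM, and NT5C3A at 20.9, 12.5 and 8.56 TPM. DPYD, which opens pyrimidine breakdown, was at 2.53, 1.0 and 1.2 TPM.

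The deposited annotation assigns genes to KEGG terms. In Purine metabolism, 35 of 133 tested genes (26.3%) were at least 1.5-fold lower under shUSP16#1 and 44 (33.1%) under shUSP16#2. In Pyrimidine metabolism it was 24 of 94 (25.5%) and 32 (34.04%), beside 23.2% and 38.5% of all tested genes. For the first term the median changes were -0.20 and -0.30, for the second -0.24 and -0.28, beside -0.17 and -0.37 for all tested genes. These terms include 6 and 4 of the 10 enzymes.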
